A study of Mus musculus with 2 samples.

Results

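Malat1, Neat1, Gm42418, AY036118, Gm26917 and Lars2 were examined in single bone marrow cells of a control (Ctrl) and a Map4k4-cKO (cKO) library. These 6 of the 32285 genes in the deposited matrices were picked by symbol, and their values were laid out by sequencing depth of the cell, by marker-gated cell class and by library. They had been proposed with their level in shallow cells, in cell classes and in both libraries in view. All such levels are therefore given as descriptions without a test.

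Both libraries came from bone marrow of mice 13 to 14 weeks old. In each, c-Kit+ haematopoietic stem and progenitor cells (HSPCs) from magnetic beads were pooled with marrow depleted of red cells by lysis, in a 2:3 ratio. RNA with a poly-A tail was reverse transcribed in droplets (BMKMANU DG1000, 3′ protocol), and each molecule carried a unique molecular identifier (UMI). One aim of the study was to learn how loss of the kinase gene Map4k4 acts on neutrophil differentiation. The cKO mice were Mx1-Cre Map4k4 f/f on a C57BL/6 background, in which poly I:C had induced Cre to remove the floxed (f) alleles. The methods of the study do not state whether Ctrl mice received poly I:C. If they did not, treatment and genotype cannot be told apart. The Ctrl littermates carried Mx1-Cre as well and are written as Map4k4 −/− in a scheme where f is the floxed allele. Elsewhere the study calls the cells of the Ctrl library wildtype. Mx1-Cre answers to interferon, and it is active in many cell types besides haematopoietic cells. How many mice went into a library is not given in the sources used here, and each genotype has 1 library. No difference between them could be held against a spread between replicates, and no p-value is given.

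Malat1 and Neat1 are long noncoding RNAs (lncRNAs) that stay in the nucleus. Malat1 is found at nuclear speckles, where splicing factors gather, and Neat1 is the scaffold of paraspeckles. Ribosomal RNA (rRNA) is made in the nucleolus as a long precursor and normally has no poly-A tail, yet some of it reaches 3′ libraries. Gm42418, AY036118 and Gm26917 are gene models at an rRNA-like locus of chromosome 17. Lars2 encodes the mitochondrial leucyl-tRNA synthetase, which charges tRNA for protein synthesis inside mitochondria.

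The annotation (GENCODE release 21 of GRCm38, the build of the deposited counts) carries all 6 gene identifiers. Malat1 lies at chr19:5795690-5802672 and Neat1 at chr19:5824708-5845478, both on the minus strand and 22035 bases apart. Gm26917 (chr17:39843013-39846341, plus strand) ends 616 bases before Gm42418 (chr17:39846958-39848788, plus strand). AY036118 (chr17:39847113-39848035, minus strand) has 923 bases, 100% of them inside Gm42418 on the opposite strand. A gene model of type rRNA, CT010467.1 (chr17:39846353-39848827, minus strand), covers both. Lars2 lies apart from them at chr9:123366927-123462666 on the plus strand.

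Of the 899 words of 25 bases in AY036118, 899 also occur, on either strand, in the 356 transcripts that the annotation types as rRNA. For Gm42418 the count was 1220 of 1807. It was 0 of 3305 for Gm26917, 0 of 3870 for Lars2, 0 of 6959 for Malat1 and 0 of 20647 for Neat1. CT010467.1, which overlaps both genes by position, holds the same numbers of words, 899 of AY036118 and 1220 of Gm42418. Sequence and position are thus the same evidence for these genes, and the name rRNA-linked rests on position for Gm26917. For Lars2 these sequences gave neither. The full rRNA precursor was not compared, so a count of 0 does not show that a gene lacks likeness to rRNA. The overlap of Gm42418 and AY036118 is shown by the same 60 bases, chr17:39847545-39847604 of GRCm38, read 5′ to 3′ on the strand of each gene model, with the same 12 middle base pairs in capitals:
Gm42418, plus strand: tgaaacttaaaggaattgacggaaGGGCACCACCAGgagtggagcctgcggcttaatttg
AY036118, minus strand: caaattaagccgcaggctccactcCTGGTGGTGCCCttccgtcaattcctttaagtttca
CT010467.1, minus strand: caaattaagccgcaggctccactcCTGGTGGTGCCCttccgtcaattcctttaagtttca

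AY036118 and the rRNA gene model read the same letters on the same strand, and Gm42418 reads their complement. A read can be given to one or the other only if strand was kept in counting, and the strand setting is not given in the sources used here. The split between these 2 genes is thus reported as deposited.

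Since poly-A RNA was primed, the longest run of A in each transcript was also noted. It was 12 bases in Malat1, 7 in Neat1, 6 in Gm42418 and Lars2, and 4 in AY036118 and Gm26917. Only 4.07% of the 141767 annotated mouse transcripts have a run as long as that of Malat1, against 22.3% for Neat1, 37.7% for Gm42418 and 87.5% for AY036118. In the annotated transcripts the run of Malat1 starts at base 6674 of 6983, and that of Neat1 at base 9539 of 20771. Where these RNAs end in the cells was not tested. The runs of the lncRNAs are shown in capitals within 30 bases:
Malat1, chr19:5795979-5796008, minus strand: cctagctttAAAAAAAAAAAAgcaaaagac
Neat1, chr19:5835923-5835952, minus strand: agcctggactatAAAAAAAccttcatgagg

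The files held 10220 barcodes for Ctrl and 6872 for cKO, of which 9965 and 6718 passed the filters of the study on detected genes and mitochondrial share. The study, which also removed doublets, states fewer cells for each library, and whether shallow cells are among the difference was not tested. Kept cells carried 71282090 UMIs in Ctrl and 64241692 in cKO, with medians of 4111 and 6243.5 UMIs a cell. Mitochondrial genes took 1.93% of the UMIs in Ctrl and 1.31% in cKO. Both libraries share 3010 barcodes, 29.5% of those in Ctrl and 43.8% in cKO. Over 300 pairs, profiles of cells with the same barcode had a median correlation of 0.501, against 0.514 for other barcodes. Map4k4 itself stood at 72.6 CPM (counts scaled to a common library total) in Ctrl and 64.3 in cKO. Where the counted 3′ ends lie relative to the deleted exons is not given in the sources used here, so directions below rest on the labels.

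Across all kept cells, 5 of the 6 genes took a smaller share of UMIs in cKO than in Ctrl, from slightly to more than 2-fold smaller, and AY036118 took nearly the same share. Malat1 made up 0.406% of UMIs in Ctrl and 0.159% in cKO, a log2 ratio of −1.35 (exact binomial 95% interval −1.37 to −1.34). Neat1 made up 0.0190% and 0.0151%, a log2 ratio of −0.33 (−0.37 to −0.29). Malat1 and Neat1 together thus differed by −1.29 on the log2 scale, and nearly all of that sum is Malat1. These intervals, and those below, cover counting error only.

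Among the genes of chromosome 17, Gm42418 took 3.03% of UMIs in Ctrl and 1.53% in cKO, a log2 ratio of −0.99. Gm26917 took 0.0241% and 0.0104%, a log2 ratio of −1.20. AY036118 took 0.418% and 0.415%, a log2 ratio of −0.01. The neighbours on this locus were therefore unequal, with AY036118 at nearly the same share in both libraries.

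Lars2 took 0.0575% of UMIs in Ctrl and 0.0277% in cKO, a log2 ratio of −1.05. The 4 rRNA-linked genes summed to 3.53% in Ctrl and 1.98% in cKO, a log2 ratio of −0.83, but this direction turned to 0.084 when each cell was weighted equally and to 0.087 when each cell was thinned to 500 UMIs. Among 2620 genes with at least 50 CPM, the median log2 ratio was −0.25, 72.1% were lower in cKO at any size, 5.27% were lower by more than 1 on the log2 scale and 1.34% higher. Of the 6 genes, 3 (Malat1, Gm26917 and Lars2) were lower past 1, and 5 lay below the median of all genes. Neat1, at −0.33, was close to that median, but within the 6 gated classes described below it ran from −0.96 to −0.44. With equal weights for these 6 classes Neat1 stood at −0.70, a value that leaves out the other classes and the ungated cells. The part of the class mix in the value over all cells was not otherwise tested. Scaling by the median of gene ratios in place of total UMIs moved every value up by 0.52, which put Neat1 at 0.19 and Gm42418 at −0.47. That scaling took in every gene with UMIs in both libraries, without the 50 CPM minimum. With the median of the 2620 genes subtracted, Neat1 stood at −0.085 and Gm42418 at −0.74. The direction of AY036118 is not given, since it ran from −0.27 to 1.12 over the alternatives tried. Over the same alternatives Gm42418 ran from −1.16 to −0.11, Lars2 from −1.18 to −0.26 and Gm26917 from −1.27 to −0.57. Malat1 ran from −1.40 to −0.83 and Neat1 from −0.70 to 0.19.

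The plain difference between libraries mixes cells of unequal depth, which were therefore separated. Cells with 500 to under 1000 UMIs, called shallow, made up 11.7% of Ctrl (1170 cells) and 20.4% of cKO (1371 cells). Those above 2000 UMIs, called deep, numbered 7252 and 4509. In both libraries each of the 6 genes took a larger share of summed UMIs in shallow than in deep cells. Of all genes tested, 43.1% did so in Ctrl and 43.9% in cKO. In cKO the shares of the rRNA-linked genes differed most.

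Malat1 took 0.726%, 0.733% and 0.391% of UMIs in Ctrl cells with 500 to under 1000, with 1000 to 2000 and with over 2000 UMIs. In cKO it took 0.414%, 0.432% and 0.150%. Its share of summed UMIs was level across the shallower bins and lower in deep cells, and Ctrl was above cKO in each bin. The median share of single cells differed less with depth in Ctrl, at 0.275%, 0.288% and 0.236%. The 95th percentile there was 3.51%, 3.24% and 1.67%. In cKO the medians were 0.170%, 0.163% and 0.0970%. Neat1 took 0.0478%, 0.0572% and 0.0173% in Ctrl and 0.0236%, 0.0241% and 0.0148% in cKO. The Neat1 libraries lay closest in deep cells.

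Gm42418 took 7.63%, 5.89% and 2.88% in Ctrl and 9.86%, 6.62% and 1.30% in cKO from the shallowest to the deepest bin. AY036118 took 1.03%, 0.706% and 0.4005% in Ctrl and 3.36%, 1.97% and 0.339% in cKO. For both genes cKO stood above Ctrl in the lower bins and below it in deep cells. Gm26917 took 0.0410%, 0.0384% and 0.0234% in Ctrl and 0.0386%, 0.0251% and 0.00972% in cKO. Lars2 took 0.135%, 0.123% and 0.0544% in Ctrl and 0.173%, 0.105% and 0.0240% in cKO. Lars2 therefore changed order once, between the shallowest bin and the next.

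**Figure D1:**
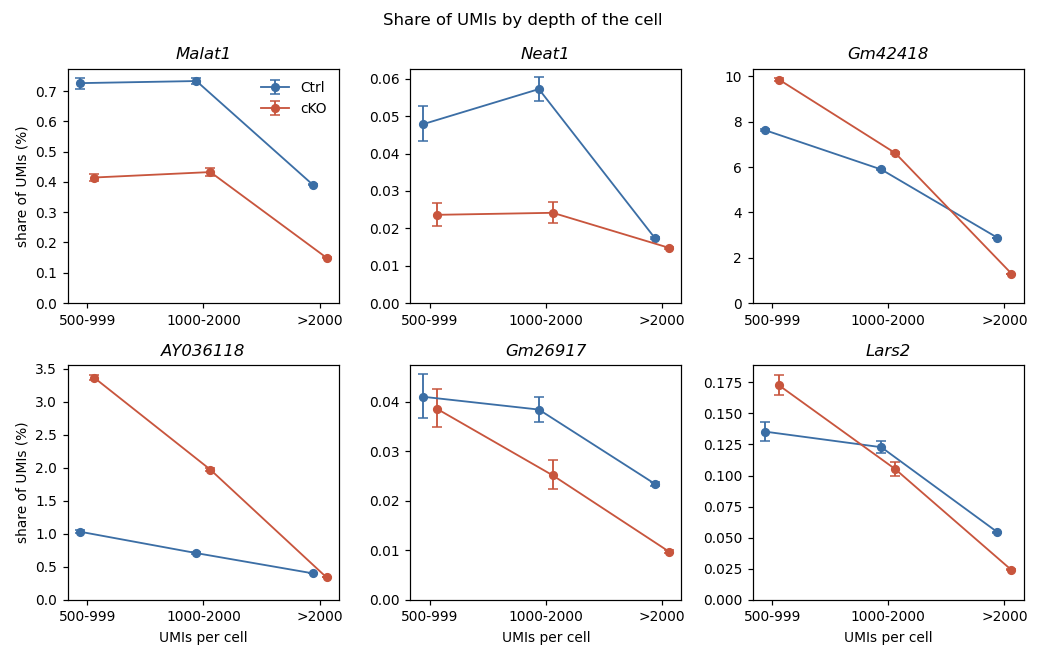
Share of UMIs (%, linear axis from 0) of each gene in cells with 500 to under 1000, with 1000 to 2000 and with over 2000 UMIs, for Ctrl (blue) and cKO (red); points are shares of summed UMIs and bars exact 95% intervals. Every line ends lowest in the deep cells, and the lines cross for Gm42418, AY036118 and Lars2 but not for Malat1, Neat1 or Gm26917.

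Expressed as the log2 ratio of shallow to deep cells, the Ctrl values were 0.89 for Malat1, 1.46 for Neat1, 1.40 for Gm42418, 1.36 for AY036118, 0.81 for Gm26917 and 1.32 for Lars2. In cKO they were 1.47, 0.68, 2.92, 3.31, 1.99 and 2.85 in the same order. Past 1 were 4 of the 6 genes in Ctrl, where 3.22% of 2917 genes were, and 5 of 6 in cKO, where 0.568% of 2288 genes were. In cKO, AY036118 thus took a 9.93-fold larger share in shallow than in deep cells, and Gm42418 a 7.58-fold larger one. Neat1 was the single gene of the 6 with a smaller ratio in cKO than in Ctrl.

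When 1232 genes of at least 100 CPM were ordered by the lower of their ratios in both libraries, Gm42418, AY036118 and Lars2 came at ranks 1, 2 and 3. The next were mt-Nd5 (1.04), mt-Nd3 (0.98), mt-Co1 (0.98), the haemoglobin gene Hba-a2 (0.92), then Malat1 (0.89) and the immunoglobulin gene Ighg2b (0.88), with Gm26917 (0.81) at rank 10 and Neat1 (0.68) at rank 15. The mt- genes are encoded by the mitochondrial genome, and all 11 that were measured in Ctrl, and all 10 in cKO, had ratios above 0, with medians of 0.89 and 0.76. Genes of cytosolic ribosomal proteins stood at medians of −0.49 and −0.34. Mitochondrial transcripts thus took a larger share of shallow cells beside the 6 genes.

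Other features moved with depth too. The mitochondrial share in shallow, middle and deep cells was 3.31%, 2.52% and 1.89% in Ctrl and 2.23%, 1.95% and 1.29% in cKO. Cells without a marker-gated class made up 57.4%, 23.1% and 8.12% in Ctrl and 83.6%, 55.4% and 6.76% in cKO. The part of these features in the depth pattern was not tested. Where a class had at least 50 shallow and 50 deep cells the pattern was looked at within it.

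Within Ctrl cells gated as mature neutrophils (mNeu-like, 168 shallow and 1311 deep cells), Gm42418 took 3.72% in shallow and 3.27% in deep cells, a log2 ratio of 0.18. AY036118 took 0.588% and 0.575%, a ratio of 0.03 (−0.07 to 0.14). Both ratios were small beside those of all Ctrl cells, and below the median of 0.29 over 2243 genes in this class. Malat1 and Neat1 had ratios of 0.62 and 0.93 there. In erythroblast-like Ctrl cells (126 shallow and 122 deep cells), Gm42418 took 9.59% and 6.91%, a ratio of 0.47, and 14.6% in the 54 cells with 1000 to 2000 UMIs. The ratios were 0.97 for AY036118, 0.95 for Malat1, 2.09 for Neat1 and 0.41 for Lars2, and that of Gm26917 had an interval that spanned 0 (−0.71 to 0.48). The median of all genes in this class was −0.31.

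In mNeu-like cells of cKO (101 shallow and 1540 deep cells) the ratios were 1.496 for Gm42418, 1.49 for AY036118, 1.84 for Lars2 and 1.99 for Malat1, but 0.13 (−0.44 to 0.64) for Neat1. In early neutrophil precursors of cKO (ProNeu/GMP-like, 61 shallow and 558 deep cells), Gm42418 took 6.76% in shallow and 0.416% in deep cells, a ratio of 4.02. Lars2 took 0.160% and 0.00845%, a ratio of 4.24. Malat1 took 0.170% and 0.199% there, a ratio of −0.22 (−0.56 to 0.10). Gm26917 stood at 0.52 (−0.61 to 1.45). Neat1 stood at 0.33 (−1.55 to 1.69) and AY036118 at 3.23 (3.11 to 3.34). The ratios of Malat1, Neat1 and Gm26917 thus had intervals that spanned 0 in the precursors, unlike those of Gm42418, AY036118 and Lars2. The median of all genes in these precursors was −0.39. Among shallow ungated cells Gm42418 took 8.68% in Ctrl and 10.6% in cKO, and Malat1 0.729% and 0.4004%.

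The comparison of libraries was then repeated within each depth bin. In deep cells all 6 genes were lower in cKO, with log2 ratios of −1.39 for Malat1, −0.23 for Neat1, −1.15 for Gm42418, −0.24 for AY036118, −1.27 for Gm26917 and −1.18 for Lars2. At any size 71.5% of 2606 genes were lower there. Lower past 1 were 4 of the 6, against 5.79% of these genes. In shallow cells, AY036118 was 3.27-fold higher in cKO (log2 ratio 1.71, 1.67 to 1.74), Gm42418 was 1.29-fold higher (0.37) and Lars2 1.28-fold higher (0.35), while Malat1 was lower at −0.81 and Neat1 at −1.02. Gm26917 stood at −0.09, with an interval that spanned 0 (−0.30 to 0.13). At any size 3 of the 6 were lower in shallow cells, against 74.7% of 2769 genes. Higher past 1 was 1 of 6, against 1.05%, and lower past 1 was 1 of 6, against 6.86%.

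In cells with 1000 to 2000 UMIs the log2 ratios were −0.76 for Malat1, −1.25 for Neat1, 0.17 for Gm42418, 1.48 for AY036118, −0.61 for Gm26917 and −0.22 for Lars2. At any size 4 of 6 were lower, against 67.1% of 2911 genes. Higher past 1 was again 1 of 6 (2.3%), and lower past 1 was 1 of 6 (11.1%). The lncRNAs lay below Ctrl in all 3 bins, and the Gm42418 and AY036118 pair lay above Ctrl in the bins up to 2000 UMIs. The shallow bins hold different mixtures of cells in both libraries, as the share of ungated cells above shows.

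**Figure D2:**
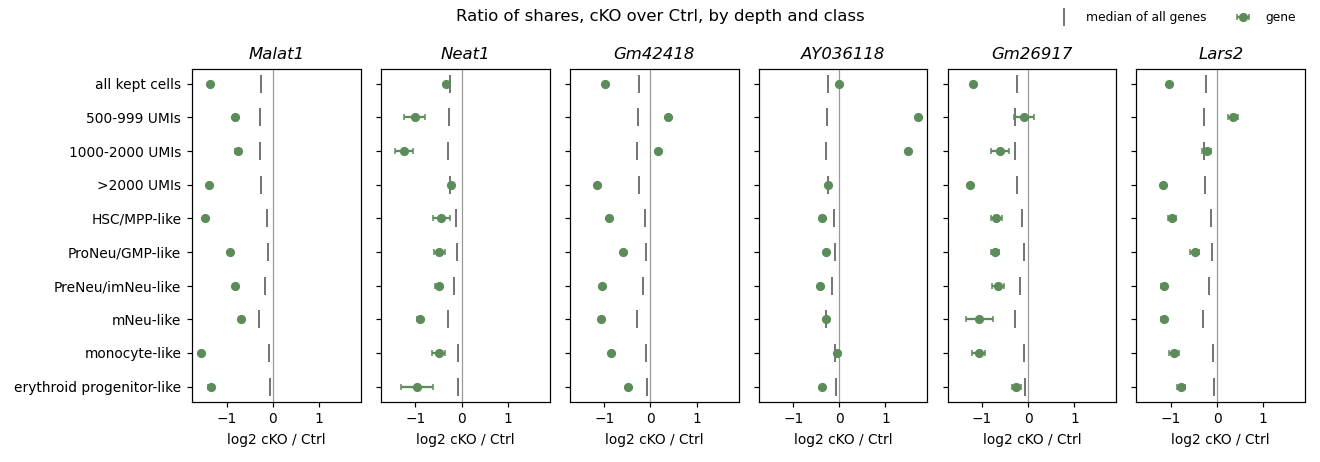
Log2 ratio of the share of UMIs, cKO over Ctrl, of each gene in all kept cells, in 3 depth bins and in 6 gated classes (green points, bars exact 95% intervals); the dark tick is the median over all genes with at least 50 CPM in that comparison and the grey line marks 0. Points of Gm42418, AY036118 and Lars2 lie right of 0 in the bin under 1000 UMIs, and all 36 points of the classes lie left of 0.

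The rRNA-linked share of single cells was broader in cKO. Its median was 3.70% in Ctrl and 2.30% in cKO, whereas the 95th percentile was 13.9% in Ctrl and 26.3% in cKO. Cells above 20% numbered 273 in Ctrl (2.74%) and 548 in cKO (8.16%). Their median depth was 983 UMIs in Ctrl and 748 in cKO, and 58.2% and 92.2% of them had no gated class. In cKO they carried 1.60% mitochondrial UMIs, against 1.31% in the other cells, and in Ctrl 3.79% against 1.92%.

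Shallow cells of cKO did not spread evenly over this share. Of 1371, 452 lay below 5%, 315 from 5% to 10%, 83 from 10% to 15%, 103 from 15% to 20%, 257 from 20% to 30%, 150 from 30% to 50% and 11 above 50%. From 10% to 20% there were thus fewer cells than in the equally wide range from 20% to 30%. In Ctrl, 559 of 1170 shallow cells lay below 5%, 305 from 5% to 10%, 95 from 10% to 15%, 71 from 15% to 20%, 91 from 20% to 30%, 48 from 30% to 50% and 1 above 50%, so that the range from 10% to 20% held more than that from 20% to 30%. The upper group was smaller in Ctrl, at 7.78% of shallow cells between 20% and 30% against 18.7% in cKO.

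Malat1 did not follow the rRNA-linked share in these cells. In shallow Ctrl cells it took 0.972% of UMIs where the rRNA-linked share was below 5% and 0.469% where it was 20% to 30%. In shallow cKO cells it took 0.618% and 0.305%. From 5% to 10% Malat1 took 0.509% in Ctrl and 0.302% in cKO, and from 30% to 50% it took 0.335% and 0.407%. There was thus no steady fall in cKO. A high rRNA-linked share also lowers the share of every other gene by construction. The median number of detected genes was 429 below 5% and 329 from 20% to 30% in cKO, and 94.2% of the upper group had no gated class. The mitochondrial share of the upper group was 1.51% in cKO and 2.73% in Ctrl.

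A few cells were almost wholly made of these transcripts. In the cKO cell with the highest share, the rRNA-linked genes took 96.8% of 13643 UMIs, with 296 genes detected. In another cKO cell, AY036118 took 80.1% and Gm42418 7.14% of 3416 UMIs. The highest Ctrl cell stood at 71.4% of 5956 UMIs with 1022 detected genes. High shares were therefore not limited to shallow cells.

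**Figure D3:**
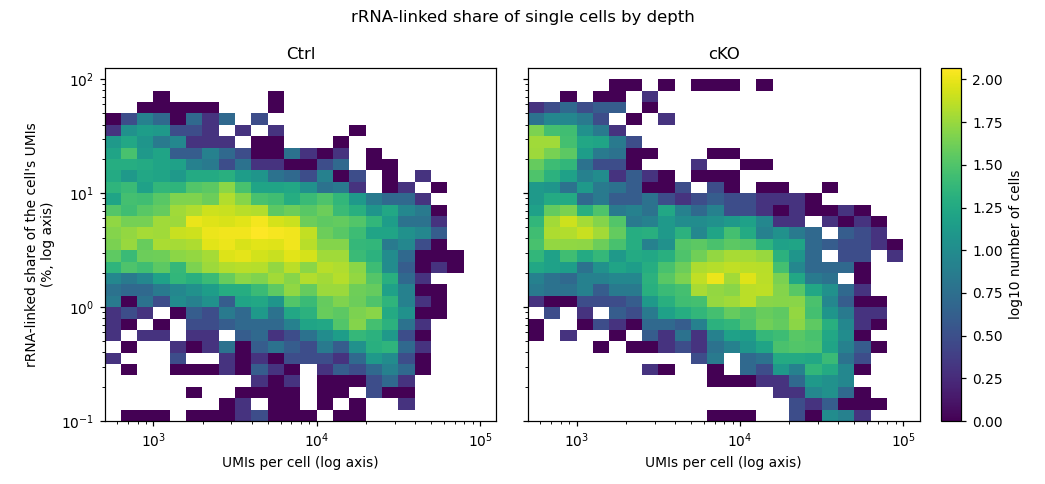
Number of kept cells (colour, log10) by UMIs per cell (log axis) and rRNA-linked share of the cell's UMIs (%, log axis; cells under 0.1% are drawn at 0.1%), for Ctrl (left) and cKO (right). Shallow cKO cells form an upper group, which holds the 257 cells from 20% to 30%, apart from those below 10%, and a few deeper cKO cells lie near 96.8%.

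The split between Gm42418 and AY036118, which overlap on opposite strands, also differed between the libraries. AY036118 took 12.1% of the UMIs of the pair in Ctrl and 21.3% in cKO. In Ctrl its part was 11.9%, 10.7% and 12.2% from shallow to deep cells, and in cKO 25.4%, 22.9% and 20.7%. The split was thus almost level with depth in Ctrl and higher in every bin of cKO.

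Among the 6 gated classes with at least 50 cells in both libraries, the part of AY036118 was high in monocyte-like cells, at 21.7% in Ctrl and 32.6% in cKO, and in ProNeu/GMP-like cells, at 21.8% and 25.8%. The pair had overlapping intervals in Ctrl, and monocyte-like cells were highest in cKO. It was lowest in erythroid progenitor-like cells, at 6.04% and 6.50%. Stem and multipotent progenitor-like (HSC/MPP-like) cells stood at 8.26% and 11.5%, PreNeu/imNeu-like cells at 17.1% and 24.4%, and mNeu-like cells at 14.7% and 22.9%. All 6 classes had the higher value in cKO, and the gap was narrowest in erythroid progenitor-like cells. In shallow cKO cells the part of AY036118 was 17.3% where the rRNA-linked share was below 5% and 28.8% where it was 20% to 30%, and in Ctrl it was 11.3% in the latter group.

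**Figure D4:**
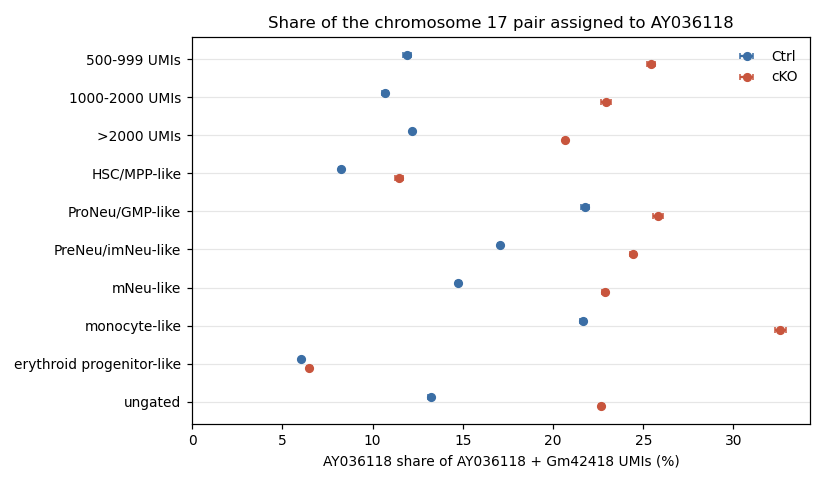
Share (%) of the summed UMIs of AY036118 and Gm42418 that were assigned to AY036118, in 3 depth bins, 6 gated classes and ungated cells of Ctrl (blue) and cKO (red); bars are exact 95% intervals. Red points lie to the right of blue ones in each row, with the narrowest gap in erythroid progenitor-like cells (6.04% and 6.50%).

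Cell classes were then compared. A cell was given the class whose markers were most above their mean share over both libraries, and classes with at least 50 cells were kept, 14 in Ctrl and 6 in cKO. Ungated cells numbered 1617 in Ctrl and 1915 in cKO. A marker share is taken over all UMIs of the cell, so that a high rRNA-linked share lowers it by construction. Of the 10 genes with the highest fold in each of these classes, 2 to 7 were markers of that class and none was a marker of another. Cells were gated on these same markers, so this is no separate check of what the classes are. Since classes differ in depth, from a median of 1015 UMIs in macrophage-like to 16778 in ProNeu/GMP-like Ctrl cells, part of any order may go with depth, and that part was not tested.

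In Ctrl, Malat1 was highest in T/NK-like cells (1.44%) and plasmacytoid dendritic (pDC-like) cells (1.21%), but their order was reversed when cells were thinned to 500 UMIs. It was lowest in PreNeu/imNeu-like cells, the granule-forming neutrophil precursors, at 0.112%. The range spanned 12.9-fold, and 3 of the 13 neighbours in the order had overlapping intervals, among them basophil/mast-like (0.911%) and B-like cells (0.894%). HSC/MPP-like cells stood at 0.682%, monocyte-like at 0.524%, ProNeu/GMP-like at 0.379%, mNeu-like at 0.336% and erythroid progenitor-like at 0.237%. Erythroblast-like cells stood at 0.505%, but at 0.801% after thinning, beside 0.788% for HSC/MPP-like cells.

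Neat1 had another order. It was highest in mNeu-like cells at 0.0667% of UMIs, followed by basophil/mast-like cells at 0.0225%, and lowest in erythroid progenitor-like cells at 0.00611%. Of its 13 neighbours 11 had overlapping intervals. By counting error alone, only mNeu-like cells at the top and erythroid progenitor-like cells at the bottom stood apart from the next class. In cKO, Neat1 was again highest in mNeu-like (0.0355%) and lowest in erythroid progenitor-like cells (0.00314%).

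When cells were thinned to 500 UMIs, the top class was another for 3 of the genes described next, erythroblast-like cells for Gm42418 (9.91%, T/NK-like 8.24%) and AY036118 (0.705%, T/NK-like 0.645%), and plasma-like cells for Lars2 (0.183%, T/NK-like 0.177%). Over summed UMIs Gm42418 ranged in Ctrl from 8.84% in T/NK-like and 7.53% in erythroblast-like cells to 0.751% in ProNeu/GMP-like cells, 11.8-fold. None of its 13 neighbours had overlapping intervals, but these leave out the spread between cells. In a macrophage-like cell Gm42418 took 70.1% of 5956 UMIs, in a class of 136 cells with 23563 UMIs of this gene. The order of neighbouring classes can therefore rest on few cells. AY036118 ranged less, 3.24-fold, from 0.677% in T/NK-like to 0.209% in ProNeu/GMP-like cells. Gm26917 ranged 16.4-fold, from 0.0592% in T/NK-like to 0.00360% in mNeu-like cells. The order of Gm26917 thus put neutrophils last, with PreNeu/imNeu-like cells (0.00693%) next to mNeu-like cells, whereas mNeu-like cells held rank 9 of 14 for Gm42418 (3.36%). Lars2 ranged 11.3-fold, from 0.158% in T/NK-like and 0.125% in B-like cells to 0.0140% in ProNeu/GMP-like cells. Of the 13 neighbours, 6 overlapped for AY036118, 7 for Gm26917 and 6 for Lars2.

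**Figure D5:**
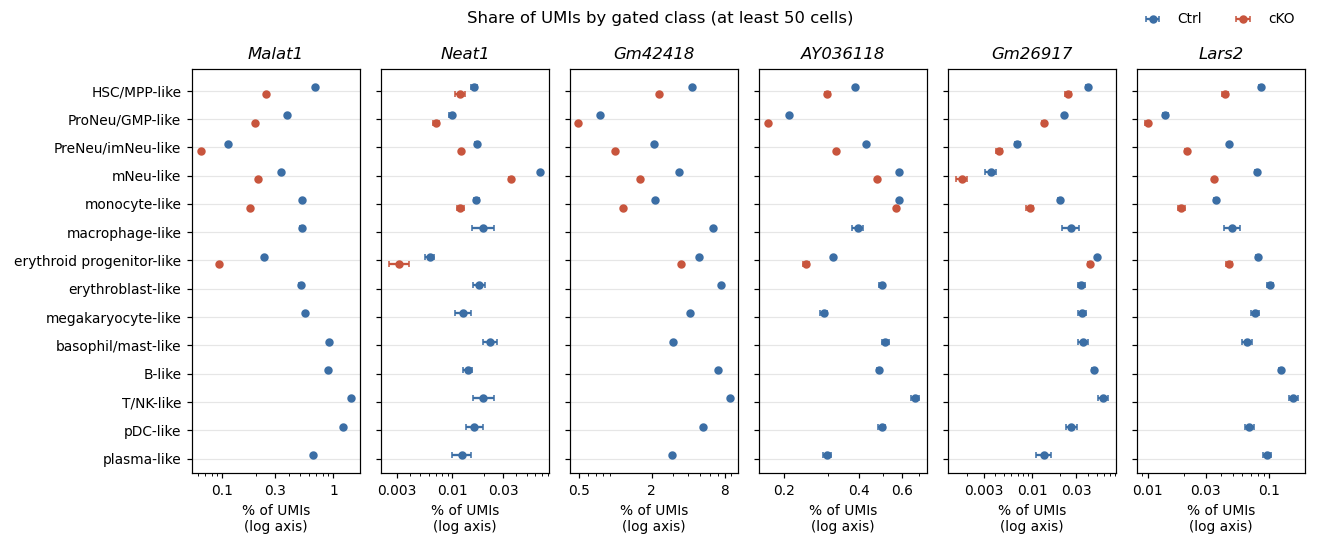
Share of UMIs (%, log axis, a separate range for each gene) in gated classes with at least 50 cells, 14 in Ctrl (blue) and 6 in cKO (red); bars are exact 95% intervals. Neat1 stands out in mNeu-like cells and Gm26917 is lowest there, while Gm42418, AY036118 and Lars2 are lowest in ProNeu/GMP-like cells of both libraries. In cKO the latter did not hold with cells thinned to 1000 UMIs. Gm42418 then took 1.55% in ProNeu/GMP-like and 1.19% in PreNeu/imNeu-like cells. AY036118 took 0.342% in ProNeu/GMP-like and 0.308% in HSC/MPP-like cells, and Lars2 0.0294% in ProNeu/GMP-like and 0.0270% in monocyte-like cells.

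Within the 6 classes present in both libraries, each gene took a smaller share in cKO. In HSC/MPP-like cells (522 Ctrl and 168 cKO cells) Malat1 took 0.682% and 0.248%, a log2 ratio of −1.46. In monocyte-like cells (860 and 380) it took 0.524% and 0.179%, a ratio of −1.55. In erythroid progenitor-like cells (428 and 111) the ratio was −1.33. Along the neutrophil lineage Malat1 was closer between the libraries, with −0.93 in ProNeu/GMP-like (749 cells in each), −0.82 in PreNeu/imNeu-like (1981 and 1401) and −0.68 in mNeu-like cells (2127 and 1793).

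Neat1 stood at −0.96 (−1.31 to −0.62) in erythroid progenitor-like and −0.91 in mNeu-like cells, and was nearest to Ctrl among HSC/MPP-like cells, at −0.44. Gm42418 ran from −1.08 in mNeu-like and −1.06 in PreNeu/imNeu-like to −0.48 in erythroid progenitor-like cells. Lars2 stood at −1.16 in both mNeu-like and PreNeu/imNeu-like cells and at −0.49 in ProNeu/GMP-like cells. Gm26917 ran from −1.07 in monocyte-like to −0.26 in erythroid progenitor-like cells, and AY036118 from −0.41 in PreNeu/imNeu-like to −0.04 (−0.06 to −0.02) in monocyte-like cells. As plain ratios, Gm42418 and Lars2 were furthest from Ctrl in the later neutrophil classes, where Malat1 was closest to it. The median of all genes was −0.30 in mNeu-like, −0.12 in HSC/MPP-like and −0.09 in monocyte-like cells. With that median subtracted, Gm42418 stood at −0.78, −0.77 and −0.76 in the same order, and Lars2 at −0.86, −0.85 and −0.84. PreNeu/imNeu-like cells remained furthest, at −0.89 and −0.99, and Malat1 remained closest in mNeu-like cells, at −0.38.

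Of the 36 values of 6 genes in 6 classes, 36 were below 0, and 35 were below the median of all genes in their class, the exception being AY036118 in monocyte-like cells. The median of all genes was itself below 0 in each class, and most genes were lower at any size. Their share was 61.1% in HSC/MPP-like, 60% in ProNeu/GMP-like, 70.8% in PreNeu/imNeu-like, 78.4% in mNeu-like, 58.3% in monocyte-like and 55.8% in erythroid progenitor-like cells. Lower past 1 was 1 of 6 genes in HSC/MPP-like cells (0.718% of 3202 genes), 2 in PreNeu/imNeu-like (0.812% of 1848), 2 in monocyte-like (0.847% of 3188) and 1 in erythroid progenitor-like cells (1.12% of 3121). In ProNeu/GMP-like cells it was 0 (0.532% of 2633), and 2 of the 5 that reached 50 CPM in mNeu-like cells (2.38% of 2014). Gm26917 missed that minimum in mNeu-like cells.

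When cells were thinned to 1000 UMIs, 30 of the 36 values stayed below 0. The others were Gm42418 (0.48), AY036118 (0.43) and Lars2 (0.38) in ProNeu/GMP-like cells, AY036118 in monocyte-like and erythroid progenitor-like cells, and Neat1 in the last. Thinning gives each cell equal weight and leaves out the 1170 and 1371 shallow cells. Among ProNeu/GMP-like cells of cKO, Gm42418 took 4.62% in the 130 cells with 1000 to 2000 UMIs and 0.416% in the 558 deep cells. With cells of at least 2000 UMIs, and with a gate that asked for 4 markers, 36 of 36 were below 0. In ungated cells the direction split, with Malat1 at 0.466% in Ctrl and 0.211% in cKO but Gm42418 at 3.57% and 4.55% and AY036118 at 0.545% and 1.33%.

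In mature neutrophils the difference between libraries crossed with depth for Malat1. In mNeu-like cells with under 1000 UMIs it took 0.518% in Ctrl (168 cells) and 0.779% in cKO (101 cells), and with 1000 to 2000 UMIs 0.305% (648 cells) and 0.782% (152 cells). Above 2000 UMIs it took 0.337% (1311 cells) and 0.196% (1540 cells). Malat1 was thus higher in cKO among shallower mNeu-like cells, by 0.59 and 1.36 on the log2 scale, and lower among deep ones, at −0.78. Neat1 was lower in cKO at each of these depths, with ratios of −1.60, −0.84 and −0.80.

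The members also differed in how they went with the mitochondrial share of the cell. From cells with 0 to 1% to cells with 10 to 30% mitochondrial UMIs, Malat1 went from 0.231% to 1.63% in Ctrl and from 0.1295% to 1.17% in cKO. Gm26917 went from 0.00560% to 0.221% and from 0.00356% to 0.142%. Gm42418 went from 2.95% to 7.34% and from 1.59% to 5.92%. Gm42418 was lowest in cells with 1 to 2%, at 2.58% in Ctrl and 1.24% in cKO. From 2 to 5% it took 3.27% and 1.80%, and from 5 to 10% it took 7.59% and 3.72%. Neat1 was at 0.0361% and 0.0378% at the ends in Ctrl and at 0.0128% in between, from 2 to 5%. In cKO, Neat1 was at 0.0215% and 0.0291% at the ends and at 0.00940% from 1 to 2%. Cells with 10 to 30% mitochondrial UMIs had median depths of 1229 UMIs in Ctrl and 969 in cKO. Gated classes differed in mitochondrial share too. In Ctrl it was 0.535% in mNeu-like, 1.11% in PreNeu/imNeu-like and at most 2.78%, in macrophage-like cells. Neither depth nor cell class was separated from mitochondrial share here.

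Across the 20 class sums of both libraries, Gm42418 and Lars2 had the most similar profiles among the 15 pairs of members, with Pearson's r of 0.93 on log2(CPM + 1) (0.86 over the 14 sums of Ctrl and 0.96 over the 6 of cKO). Gm42418 and AY036118, which share a locus, stood at 0.51, and Neat1 and Gm26917 at −0.47. Of 2942 other genes, those most like Malat1 were Nktr (0.88), Luc7l2 (0.87) and Etnk1 (0.87), and among those most like Neat1 were Fcho2 (0.92) and Ccpg1 (0.88). Gm42418 was most like Wnk1 (0.83), Trim56 (0.83) and Zc3hav1 (0.82), and Lars2 like Jund (0.86), Trim56 (0.80) and Arid4b (0.80). The sums share libraries and differ in depth, so that these values describe the profiles only.

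Genes with related roles were set beside the members, with all kept cells and the same 50 CPM minimum, where 72.1% of all genes were lower in cKO and 5.27% lower past 1. Of 16 listed nuclear lncRNAs 3 were measured, and all were lower in cKO, from Dleu2 at −0.63 to Kcnq1ot1 at −1.85, the only one past 1. Without the minimum 13 were measured, of which 7 were lower past 1 and 2, Meg3 (2.54, from 16 UMIs in Ctrl and 84 in cKO) and Rian (1.81, from 6 and 19), were higher past 1. Over all 15384 genes measured without it, 21.9% were lower and 1.83% higher past 1. Of the paraspeckle proteins, which bind Neat1, 7 of 10 were measured and 3 were lower past 1, with Hnrnpk nearest to Ctrl at −0.45. Of the nuclear speckle proteins 12 of 12 were measured and 1 was lower past 1, from Son at −0.33 to Srsf2 at −1.05. The list medians, −0.997 and −0.72, lay below the −0.25 of all genes, as did the median of −1.02 of the 6 members. The class mix differed between the libraries, for example with 748 B-like cells in Ctrl and 19 in cKO. Of 56 single-gene ratios of cKO over Ctrl, 47 kept their direction with equal weights for the 6 gated classes. With median-of-ratios scaling 38 did. These limits hold for the lists below too.

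Of the genes for rRNA synthesis and processing 10 of 21 were measured and 3 were lower past 1, with a median of −0.93 and a range from Polr1d (−0.04), a subunit of RNA polymerases I and III, to Taf1d (−1.32), part of the polymerase I initiation factor. Host genes of small nucleolar RNAs, 5 of 11, had a median of −0.65, from Snhg3 (−0.32) to Snhg1 (−0.81), none past 1. Cytosolic ribosomal protein genes, 78 of 86, stood at a median of −0.20, from Rpl29 (0.20) to Rps26 (−0.50). The protein part of the ribosome was thus close to the median of all genes, and the nucleolar lists were below it.

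The mitochondrial genome's genes, 11 of 13, had a median of −0.61, from mt-Co1 (−0.44) to mt-Nd4l (−2.34), with 2 past 1. None of the 16 other mitochondrial aminoacyl-tRNA synthetases, which have the same task as Lars2 for other amino acids, reached 50 CPM. Without that minimum 16 of 16 were lower in cKO and 1 was past 1, from Fars2 (−0.20) to Rars2 (−1.04), with a median of −0.71 beside −1.05 for Lars2. Over all genes without the minimum 82.9% were lower and 21.9% lower past 1, with a median of −0.53. Lars, the cytosolic leucyl-tRNA synthetase, took 66.6 CPM in Ctrl and 40.1 in cKO, a log2 ratio of −0.73. In shallow over deep cells Lars stood at −0.45 (−0.92 to −0.01) in Ctrl and at 0.08 (−0.39 to 0.52) in cKO, where Lars2 stood at 1.32 and 2.85. The depth pattern of Lars2 was therefore not shared by its cytosolic counterpart.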

How the data were processed

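The authors deposited raw UMI counts per gene and barcode for 1 Ctrl and 1 cKO library, made with Cell Ranger 5.0.0 on mm10 (GRCm38) according to the submitters' processing notes. The annotation release and the strand setting are not given in the sources used here. Barcodes had been called as cells, and the fewest UMIs in a kept cell were 500. From these counts, cells with fewer than 200 or more than 9000 genes, or above 30% mitochondrial UMIs, were left out, after the limits in the methods of the study. Python 3.11.15 with numpy 2.4.6, scipy 1.17.1 and pandas 2.3.3 was used.

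UMIs were summed over cells and given as a share of all UMIs with exact Clopper-Pearson 95% intervals. Ratios of shares have exact binomial intervals. A gene entered a comparison at 50 CPM over both sides and 10 UMIs, and was called past 1 on the log2 scale. With 1 library in each group no test was run. On simulated data for 2620 genes of the comparison over all kept cells, 95.3% of the intervals covered the set value. Whether they cover the spread between cells or libraries was not tested.

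For gating, a cell needed UMIs of at least 3 markers of a class and a marker share at least 2 times the mean of both libraries. The class with the highest ratio was taken, from 101 markers of 14 classes. The ratio was set after the sizes of the gates were seen. No doublet caller was run, and 315 gated Ctrl cells and 203 gated cKO cells had a second class above 0.5 of the leading ratio. Thinning drew 500 or 1000 UMIs from each cell without replacement, leaving out shallower cells.

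The members and lists were chosen with earlier results of these data known. Genes named beside the members are the 3 most similar in profile, the 5 leading by depth ratio and the extremes of each list, with Lars added as the cytosolic counterpart. Rian was named after its values were seen. Some genes that this rule would name are not reported here. The ribosomal protein list leaves out Rps6k kinases and Rps19bp1. Coordinates, strands and sequences are from GENCODE release 21.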

Additional observations from a re-analysis of the deposited data

Results flagged for a closer look

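For several members the cKO to Ctrl difference had opposite directions in cells with 500 to under 1000 UMIs and in cells with over 2000 UMIs, and with 1 library in each group the difference between the directions was not tested. Over all classes the log2 ratio of Gm42418 was 0.37 in shallow and −1.15 in deep cells. For AY036118 it was 1.71 and −0.24, and for Lars2 0.35 and −1.18. Within mNeu-like cells, of which 168 in Ctrl and 101 in cKO were shallow, the log2 ratio of Malat1 was 0.59 and −0.78, that of Gm42418 0.23 and −1.08, that of AY036118 1.15 and −0.31, and that of Gm26917 1.53 and −1.15. The shallow value of Gm26917 in that class has an interval from 0.07 to 3.12. Ungated cells made up 57.4% of shallow cells in Ctrl and 83.6% in cKO, and their part in the values over all classes was not tested.

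Some barcodes that the filters removed from cKO also held high shares. In barcodes with fewer than 200 detected genes, 92 in cKO and 98 in Ctrl, Gm42418 took 17.5% of UMIs in cKO and 4.35% in Ctrl. AY036118 took 2.59% in cKO and 0.258% in Ctrl in the same barcodes. Malat1 took 0.0601% and 0.0632% there. The Ctrl values of Gm42418 and AY036118 lay below those of kept shallow Ctrl cells, 7.63% and 1.03%. In removed barcodes above 30% mitochondrial UMIs, 247 in Ctrl and 130 in cKO, the libraries were close. Gm42418 took 4.15% in Ctrl and 3.97% in cKO there, and AY036118 0.347% and 0.354%.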

How the results depend on the processing

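No paired analysis was possible because each group holds 1 library, and for the same reason no library could be left out. Of 57 values recomputed under 14 settings, 55 kept their direction. They include the counts of class values below 0 (30, 36 and 36 of 36), which as counts could not change direction. The others are ratios of the sums. The exceptions were the log2 ratio of cKO over Ctrl of the rRNA-linked sum, −0.83, as a mean of per-cell shares (0.084) and with cells thinned to 500 UMIs (0.087); the cause was not tested. Of 1504 values of single genes or strata, 1406 kept theirs.

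For the lncRNA sum, cKO over Ctrl of −1.29 moved to −1.33 without mitochondrial and ribosomal protein genes, −1.32 without the members in the total, −1.03 as a mean of per-cell shares, −1.07 thinned, −1.31 from 500 detected genes or 2000 UMIs on, and −0.77 with median-of-ratios scaling. The rRNA-linked sum moved to −0.82 with all barcodes, −0.88 and −0.86 with the other totals, −1.01 in both sets of deeper cells and −0.31 with that scaling.

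The ratio of shallow over deep cells of the lncRNA sum, 0.92 in Ctrl and 1.41 in cKO, moved to 0.75 and 1.35 with all barcodes, 1.01 and 1.60 without the members in the total, 0.69 and 1.14 as a mean of cells, 0.69 and 1.17 thinned, and 0.99 and 1.53 with bins of other UMIs. In Ctrl it was 0.81 with at most 10% mitochondrial UMIs and 0.87 without mitochondrial and ribosomal protein genes. That of the rRNA-linked sum, 1.40 and 3.00, moved to 1.31 and 2.98 with all barcodes, 1.42 and 3.02 with at most 10% mitochondrial UMIs, 1.35 and 2.98 without mitochondrial and ribosomal protein genes, 1.49 and 3.19 without the members in the total, 1.10 and 2.64 both as a mean of cells and thinned, and 1.56 and 2.98 with bins of other UMIs.

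A pair of alternatives was chosen after seeing the data. Without shared barcodes cKO over Ctrl was −1.27 for the lncRNA sum and −0.63 for the rRNA-linked sum, and shallow over deep was 0.87 and 1.26 for the former and 1.38 and 2.90 for the latter in Ctrl and cKO. With equal weights for the 6 gated classes cKO over Ctrl was −1.16 and −0.72. Depth limits the values of Neat1 and Gm26917 most, which had 235 and 384 UMIs in shallow cKO cells.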
